A study of Mus musculus with 8 samples.

Results

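The genes described are 32 mouse genes whose human counterparts cause X-linked intellectual disability when mutated, taken from the count table by exact gene symbol. All 32 were found among the 25815 genes of the table, all 32 lie on the X chromosome in the mm10 annotation, and all 32 passed the filter on low counts, among 594 X-linked genes and 16810 genes tested. The libraries were made from poly(A)+ RNA of whole brains of mice killed at 50 days of age, with no treatment, on a C57BL/6NCrl background (4 backcross generations, then breeding inside the colony). The mutant group, Cstf2D50A (called D50A here), held 5 libraries and its wild-type littermates (WT) held 3. D50A replaces an aspartate in the RNA recognition motif of CSTF2, a subunit of the cleavage stimulation factor that helps cut pre-mRNA ahead of polyadenylation. Human CSTF2 is itself X-linked and tied to intellectual disability. The labels give no sex, litter or batch. Xist had 0 to 8 counts and the Y-linked Ddx3y 1223 to 1751 counts in the 8 libraries, so all were alike in carrying a Y chromosome and little Xist RNA. Whole brain mixes regions and cell types, and fewer cells of a type cannot be told apart from less RNA per cell.

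Genes of this class are mutated in boys with intellectual disability because males carry a single X chromosome and have no spare copy. They do not form a pathway. Some build or organise synapses, some encode chromatin and transcription regulators, and others act on RNA, on ubiquitin or on protein and lipid modification, and most are active in neurons throughout life.

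The libraries were uneven, and this touches every result below. Depth ran from 13675945 to 24802272 counts. Mitochondrially encoded genes took 11.9% and ribosomal protein genes 7.44% of the reads of D50A 3, against 4.08% to 5.14% and 1.22% to 1.56% in the others, and its highest Pearson correlation with another library was 0.888 (at least 0.992 for the other 7). The 10 cerebellar markers had a mean log2 CPM of 5.41 to 5.87 in D50A 2 to 5 and of 1.97 to 2.17 in D50A 1 and WT. Oligodendrocyte and microglia markers had their highest means in D50A 3 (9.97 and 5.91, against at most 9.1 and 4.85 elsewhere), and the 7 neuronal markers their lowest (8.67 against 8.94 to 9.09). The neuronal markers were split there: 4 of the 7 lay below the WT mean in D50A 3, against 7 in D50A 5. Pituitary markers (3 tested) averaged 7.67 in WT 2 and at most 1.97 in any other library. Results are given for all libraries and for D50A 2, 4 and 5 against WT. That contrast leaves out D50A 3 and also D50A 1, the only D50A library with cerebellar markers at the WT level. Genotype and cerebellar content then coincide and cannot be told apart. In it edgeR called 10 of the 10 cerebellar markers higher, against 3.36% of all genes, and with all 8 libraries it called 0.

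The transcripts of these genes differ widely in base composition, and composition turned out to order their values in several libraries. The same order is not given over all genes, so it is not shown to be particular to the class. GC content of the longest coding transcript ran from 36.2% in Il1rapl1 to 59.6% in Iqsec2. To show what this means, the first 120 bases of the largest coding exon are printed for the 3 genes with the most GC-rich transcripts and for 2 of the most GC-poor, 5′ to 3′ on the strand of the gene, from the GENCODE M21 transcripts (mm10), with G and C in capitals.

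Iqsec2, chrX:152222922-152223041, plus strand: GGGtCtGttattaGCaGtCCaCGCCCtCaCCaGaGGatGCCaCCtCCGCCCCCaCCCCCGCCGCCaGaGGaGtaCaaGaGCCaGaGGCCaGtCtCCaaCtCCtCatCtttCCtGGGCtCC

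Syn1, chrX:20862971-20863090, minus strand: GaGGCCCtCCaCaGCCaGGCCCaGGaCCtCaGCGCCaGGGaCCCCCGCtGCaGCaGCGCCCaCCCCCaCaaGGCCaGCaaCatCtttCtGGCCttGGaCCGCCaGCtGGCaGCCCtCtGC

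Naa10, chrX:73917167-73917286, minus strand: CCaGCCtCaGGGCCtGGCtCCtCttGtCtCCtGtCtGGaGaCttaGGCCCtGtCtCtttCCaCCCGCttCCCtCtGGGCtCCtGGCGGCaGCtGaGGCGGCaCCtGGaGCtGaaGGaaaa

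Il1rapl1, chrX:86747841-86747960, minus strand: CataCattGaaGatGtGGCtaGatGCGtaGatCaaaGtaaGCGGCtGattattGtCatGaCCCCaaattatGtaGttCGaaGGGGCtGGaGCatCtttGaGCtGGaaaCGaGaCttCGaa

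Brwd3, chrX:108743651-108743770, minus strand: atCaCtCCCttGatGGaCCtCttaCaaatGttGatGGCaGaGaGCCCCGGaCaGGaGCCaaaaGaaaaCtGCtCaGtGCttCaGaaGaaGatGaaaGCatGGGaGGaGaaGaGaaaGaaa

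The Iqsec2, Syn1 and Naa10 stretches held 63.3%, 70.8% and 63.3% G and C, and the Il1rapl1 and Brwd3 stretches held 44.2% and 46.7%. Naa10 differs from the other GC-rich examples in size: its longest coding transcript has 1031 bases, against 6017 for Iqsec2 and 3261 for Syn1.

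No gene of the class passed when 5 D50A libraries were set against 3 WT libraries (edgeR quasi-likelihood test, Benjamini-Hochberg adjustment over all genes). Of the 32, 0 were called higher and 0 lower, where the call rate over all 16810 genes was 0% in each direction, and 0 had an unadjusted p under 0.05, against 2.5% of all genes. The lowest adjusted p of the class was 0.837, shared by many genes. A log2 fold change below 0, meaning less RNA in D50A, was seen in 25 of the 32 genes and in 51.4% of all genes. The median log2 fold change was -0.16 for the class, -0.01 for all genes and 0.03 for the 562 other X-linked genes tested. Single values ran from -0.49 for Cnksr2 to 0.35 for Naa10. Without D50A 3 the class median was -0.07, with 25 of 32 values below 0 against 50.6% of all genes. For D50A 2, 4 and 5 alone it was -0.02, with 19 of 32 below 0 against 48.9%. DESeq2 called no member either, with 0.155% of genes called higher and 0.03% lower.

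**Figure D1:**
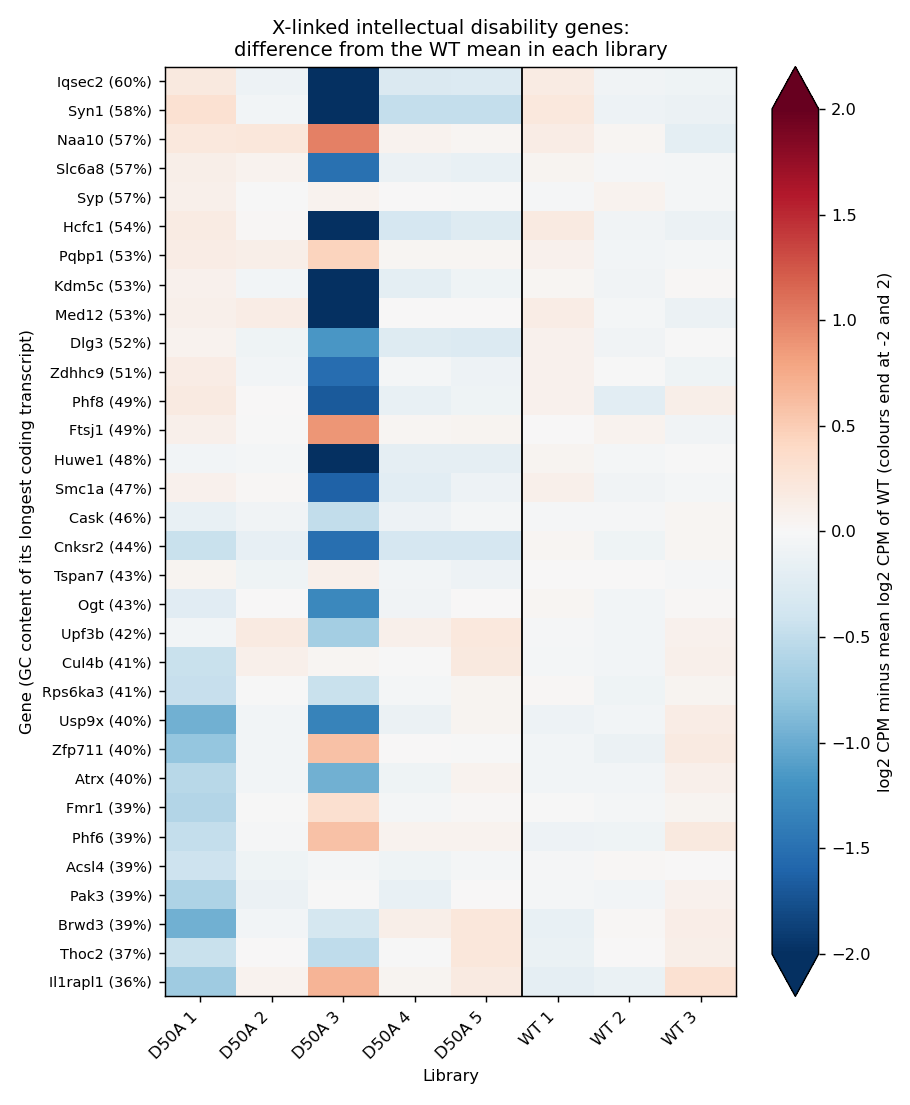
Difference of each gene's log2 CPM from the WT mean in each of the 8 libraries, one row per gene, ordered by transcript GC content from the highest (top) to the lowest; colours stop at -2 and 2. The D50A 3 column holds the deepest losses, down to -3.96 for Syn1, and D50A 1 is low mainly in the GC-poor rows at the bottom, down to -0.97 for Brwd3.

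Every D50A library lay below every WT library for 3 of the 32 genes, Cnksr2, Cask and Acsl4, against 4.24% of all genes. None lay above, against 3.22%. A single split of 8 libraries gives such counts, and 1 D50A library near a WT library decides them: with RLE scaling Acsl4 left the group, with upper-quartile scaling or without D50A 3 only Cnksr2 remained, and without WT 2 there were 6 genes in either direction. Shares over all genes are not given for these other settings, so their counts cannot be read as an excess or a deficit. Cnksr2 kept its separation in all 15 combinations of scaling, filter and libraries tried.

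Cnksr2 encodes a scaffold protein of the postsynaptic density that links receptors to Ras signalling. It was at 183, 223, 87.7, 198 and 198 CPM in D50A 1 to 5 and at 258, 237 and 256 CPM in WT 1 to 3. All 5 mutants were lower than all 3 wild types, D50A 3 by far the most. With every library the log2 fold change came to -0.49 (SE 0.28, edgeR adjusted p = 0.84), so the change did not pass. For D50A 2, 4 and 5 it was -0.26 with an SE of 0.06 and passed (edgeR adjusted p = 0.019), the only gene of the 32 to do so, where 3.06% of all genes were called lower and 3.36% higher. limma-voom, which gave D50A 3 a weight of 0.0272, also called it alone (log2 fold change -0.29, adjusted p = 0.042), where it called 1.2% of genes lower and 1.87% higher. DESeq2 did not (adjusted p = 0.905). Over the 17 alternatives the value stayed between -0.59 and -0.26 and the adjusted p between 0.019 and 0.97. In D50A 1 the deviation of Cnksr2 from the WT mean was -0.45, close to the median of -0.47 there of the 16 members with a GC content of at most 46% (its own is 43.7%). The mean log2 CPM of 8 cortex and hippocampus markers was 6.42, 6.27, 5.16, 6.15 and 6.14 in D50A 1 to 5 and 6.43 to 6.53 in WT, lowest in D50A 3, as Cnksr2 was, and 0 of the 8 were called higher and 5 lower in D50A 2, 4 and 5 against WT. The part of regional content and of base composition in the Cnksr2 value was not tested.

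**Figure D2:**
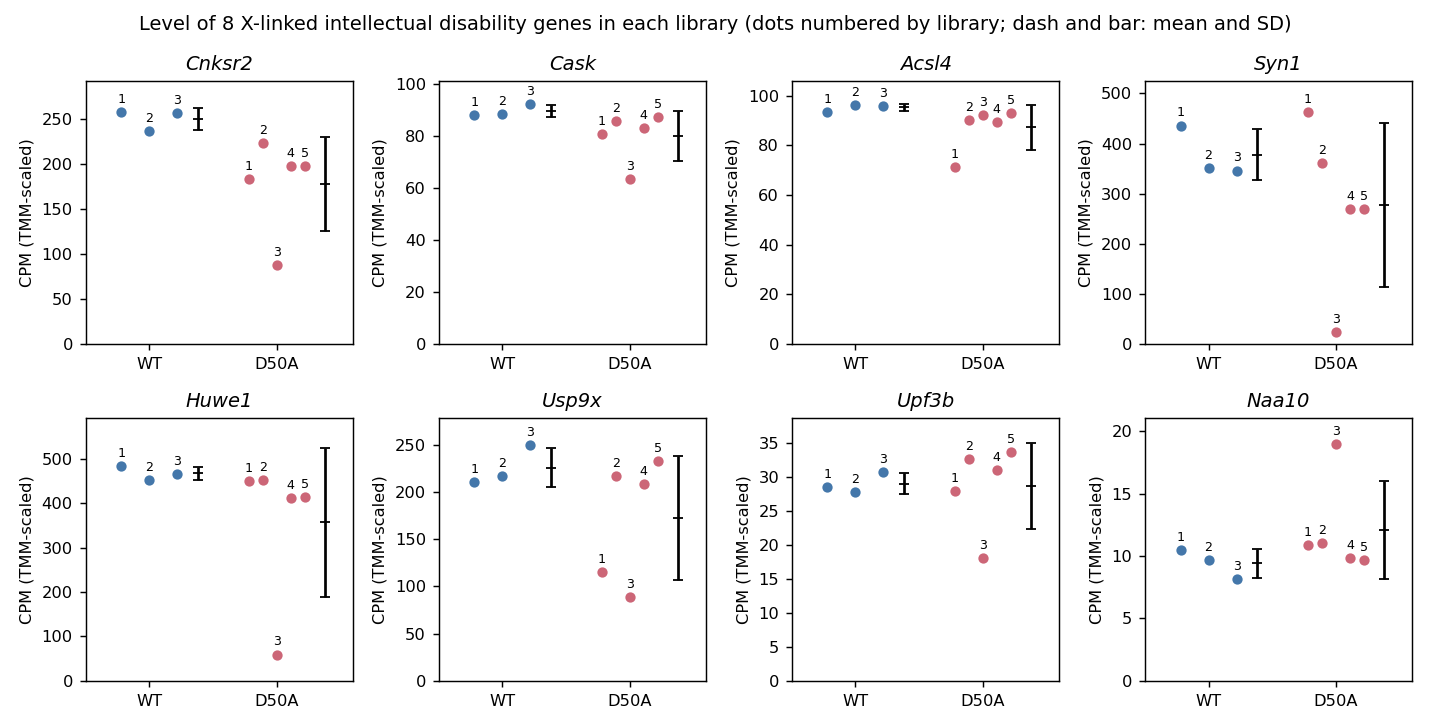
CPM of 8 genes in each library, WT in blue and D50A in red, with dots numbered by library and the mean and SD beside each group; each axis starts at 0. Cnksr2 and Cask have all 5 D50A dots under the WT dots, D50A 3 is the low dot for Syn1 and Huwe1 and the high dot for Naa10, and D50A 1 is low with D50A 3 for Usp9x.

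Among the 10 synaptic members, edgeR called 0 in either direction with all 8 libraries, and 8 had a log2 fold change below 0 (median -0.16). The share below 0 over all genes, 51.4%, stands beside this count and those of the member groups that follow. limma-voom, and edgeR on D50A 2, 4 and 5, each called 1 of the 10 lower, Cnksr2, against 1.2% and 3.06% of all genes. Syn1 encodes synapsin I, which tethers synaptic vesicles. It was at 464, 361, 24.1, 269 and 269 CPM in D50A 1 to 5 and 436, 351 and 346 CPM in WT. D50A 3 held 260 Syn1 reads where no other library held fewer than 5077, and D50A 1 was the highest of all 8. The log2 fold change came to -0.45 (SE 0.68) over all libraries and -0.32 (SE 0.1) for D50A 2, 4 and 5 (edgeR adjusted p = 0.84 and 0.076). Syp, the gene of the vesicle membrane protein synaptophysin, has a similar GC content (56.6%) but no drop in D50A 3: it was at 726, 674, 715, 683 and 673 CPM in D50A against 667, 712 and 658 CPM in WT, with D50A 1 the highest, as for Syn1, and D50A 3 inside the range of the rest. Tspan7, a tetraspanin that regulates AMPA receptor trafficking, varied as little, between 826 and 953 CPM in D50A and between 871 and 894 CPM in WT.

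The postsynaptic members followed Cnksr2 in part. Iqsec2, an exchange factor for ARF GTPases at excitatory synapses, was at 220, 179, 22.4, 158 and 159 CPM in D50A 1 to 5 and 215, 183 and 181 CPM in WT. Dlg3, which encodes the scaffold SAP102, was at 193, 172.1, 81.7, 153 and 152 CPM against 194, 175 and 183 CPM. In both genes D50A 1 reached the WT level, D50A 2, 4 and 5 were just under it and D50A 3 was far under. For D50A 2, 4 and 5 Iqsec2 had a log2 fold change of -0.21 (SE 0.07) and Dlg3 one of -0.19 (SE 0.06) (edgeR adjusted p = 0.1 and 0.087), so neither passed. In that contrast the 3 D50A libraries lay below all WT libraries for 4 members, Cnksr2, Iqsec2, Dlg3 and Tspan7, against 12.3% of all genes. Those libraries lay above all WT libraries for 1 member, Upf3b, against 13% of all genes. The share of members below was near the background, and the share above was under it.

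Cask, a membrane-associated kinase-like scaffold that meets neurexins before the synapse, was at 80.9, 85.7, 63.6, 83.4 and 87.4 CPM in D50A and 88.2, 88.6 and 92.4 CPM in WT. The groups did not overlap, but D50A 5 and WT 1 differed by under 1 CPM, and the log2 fold change came to -0.16 (SE 0.14, edgeR adjusted p = 0.84) and to -0.05 in D50A 2, 4 and 5. Pak3, a kinase that shapes dendritic spines, was lowest in D50A 1 at 101 CPM and at 139 to 156 CPM in the other D50A libraries, against 148 to 164 CPM in WT. Rps6ka3, a kinase of the ERK pathway, had its low values in D50A 1 (62.4 CPM) and D50A 3 (62.7 CPM), against 81 to 89.2 CPM in the other 6. Il1rapl1, an adhesion receptor that organises synapses and the most GC-poor of the 32, ran opposite in those libraries, with its lowest level in D50A 1 (15.1 CPM) and its highest in D50A 3 (39.6 CPM), against 21.9 to 30.5 CPM elsewhere.

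The 10 chromatin and transcription members had a median log2 fold change of -0.23, with 8 below 0 and 0 that passed. For D50A 2, 4 and 5 that median was -0.01. Med12, a subunit of the Mediator kinase module, was at 56.8, 58.6, 5.37, 53.2 and 53.5 CPM in D50A 1 to 5 and 58.6, 51.7 and 48.9 CPM in WT. Only D50A 3 was low, with 58 reads, and without it the log2 fold change turned from -0.22 to 0.07. Hcfc1, a transcriptional coregulator, and Kdm5c, a histone H3 lysine demethylase, were also lowest in D50A 3. Hcfc1 was at 12.5 CPM there against 95 to 135 CPM elsewhere, and Kdm5c at 12.4 CPM against 54.1 to 65.4 CPM. Unlike that of Med12, their log2 fold changes stayed below 0 without D50A 3, at -0.082 and -0.045. Phf8, another histone demethylase, had 8.6 CPM in D50A 3, against 24 to 31.3 CPM elsewhere. Smc1a, a cohesin subunit, was at 24.1 CPM and 64.1 to 79.4 CPM. Ogt, the enzyme that adds O-GlcNAc to nuclear and cytosolic proteins, was at 199 CPM and 415 to 498 CPM.

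GC-poor chromatin genes were low in D50A 1, and some of them in D50A 3 as well. Brwd3, a bromodomain and WD repeat protein gene, was at 12.6, 23.7, 19.4, 26.7 and 28.9 CPM in D50A 1 to 5 and 22.3, 25.1 and 27.1 CPM in WT. Atrx, a chromatin remodeler that deposits histone H3.3 at repeats, was at 174, 245, 131, 239 and 269 CPM against 246, 245 and 274 CPM. D50A 2, 4 and 5 were close to WT in both genes, with log2 fold changes of 0.11 and -0.01 in that contrast. Phf6 and Zfp711, a PHD finger gene and a zinc finger gene, were lowest in D50A 1 (23 and 10.1 CPM) and highest in D50A 3 (48.1 and 26 CPM). Their WT levels were 30 to 36.6 CPM and 15.9 to 19.6 CPM.

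The 5 RNA members had a median log2 fold change of -0.02, with 3 below 0 and 0 that passed. Fmr1, whose protein FMRP binds mRNAs and restrains their translation, was at 59.1, 87.8, 111, 86.3 and 90.3 CPM in D50A 1 to 5 and 87.8, 86.1 and 92.2 CPM in WT. D50A 2, 4 and 5 overlapped WT throughout, and D50A 1 and D50A 3 lay on opposite sides of it, so the log2 fold change came to -0.03 (SE 0.2). RLE and upper-quartile scaling turned it to 0.0018 and 0.02, and turned that of Upf3b as well. Upf3b links exon junction complexes to nonsense-mediated decay. It was at 27.9, 32.7, 18, 31 and 33.6 CPM against 28.5, 27.8 and 30.6 CPM, with D50A 2, 4 and 5 just above WT and D50A 3 below. For those 3 libraries a log2 fold change of 0.18 (SE 0.07) did not pass (edgeR adjusted p = 0.13). Thoc2, a subunit of the THO complex that couples transcription to mRNA export, ranged from 54.9 to 90.9 CPM in D50A and from 71.2 to 84.1 CPM in WT. Pqbp1, a splicing-associated factor, and Ftsj1, a tRNA methyltransferase, were highest in D50A 3, at 49.3 and 36.4 CPM. In the other 7 libraries they were at 34.9 to 39.9 and 18.7 to 21 CPM.

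The 3 ubiquitin members all had log2 fold changes below 0 (median -0.39) and 0 passed; Cul4b was near 0, and DESeq2, RLE and upper-quartile scaling turned its sign. Huwe1, a giant HECT-type ubiquitin ligase, was at 450, 453, 59.4, 411 and 414 CPM in D50A 1 to 5 and 483, 453 and 467 CPM in WT. D50A 3 was about as low as for Iqsec2, and D50A 1, 2, 4 and 5 were close to or under the lowest WT value. Usp9x, a deubiquitinase of long, GC-poor mRNA (40%), was at 116, 217, 89.2, 208 and 233 CPM against 211, 217 and 250 CPM. Both D50A 1 and D50A 3 were low for Usp9x, and its log2 fold change of -0.39 (SE 0.32) became -0.03 for D50A 2, 4 and 5. Cul4b, a cullin scaffold of ubiquitin ligases, had 32.8 CPM in D50A 1, against 42.9 to 50.8 CPM in every other library.

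The 4 members that act in protein and lipid modification or metabolism had a median of -0.17, with 3 below 0 and 0 that passed. Naa10, the catalytic subunit of an N-terminal acetyltransferase, was at 10.9, 11, 19, 9.8 and 9.64 CPM in D50A and 10.4, 9.67 and 8.14 CPM in WT. Only D50A 3 stood clear of the rest, and without it the log2 fold change of 0.35 (SE 0.25) was 0.14. Slc6a8, the creatine transporter gene, and Zdhhc9, a palmitoyltransferase of Ras proteins, were low in D50A 3, at 43.2 and 18.1 CPM, against 109 to 131 and 48.7 to 57.9 CPM elsewhere. Acsl4 activates long polyunsaturated fatty acids. It was at 71.2, 90.1, 92.2, 89.5 and 93 CPM in D50A and 93.5, 96.3 and 95.8 CPM in WT, so its groups were separated by under 1 CPM and only D50A 1 was clearly low (log2 fold change -0.13, SE 0.14, edgeR adjusted p = 0.84).

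Most of the extreme values lay in D50A 1 and D50A 3. D50A 3 was the lowest library for 18 of the 32 genes and the highest for 8, and D50A 1 was the lowest for 9 and the highest for 7. The 32 genes together took 0.263% of all counts in D50A 3, against 0.514% to 0.552% elsewhere. In D50A 1, deviation from the WT mean rose with GC content (Spearman correlation 0.91 over 32 genes). The 16 genes with a GC content of at most 46% had a median deviation of -0.47 there, with 15 below 0, and the GC-richer genes had medians of 0.09 (transcript over 4 kb, 9 genes) and 0.14 (shorter, 7 genes). The part of base composition in the fold changes was not tested. In D50A 3 the correlation was -0.45. The 9 GC-richer genes with a longest transcript over 4 kb all lay below WT in D50A 3, with a median of -2.3, while the 7 shorter ones ran from -3.96 for Syn1 to 1.01 for Naa10. The WT libraries were ordered by composition too, with a correlation of 0.85 in WT 1 and -0.83 in WT 3 against the WT mean. The WT deviations of a gene are taken from their own mean, so these WT values mirror each other and are not independent. In D50A 2, 4 and 5 the correlations with GC content were 0.14, -0.35 and -0.64. GC content was not the only property that ordered the values. With 3′ UTR length the correlations were -0.64, -0.5, 0.28, 0.012 and 0.23 in D50A 1 to 5. They were -0.62, -0.044 and 0.59 in WT 1 to 3, again not independent of each other. Correlations with these properties are not given over all genes, so none is shown to be particular to the class. These correlations describe the libraries: the genes share each library and the WT baseline, GC-rich transcripts in the class tend to be shorter (correlation -0.44 of GC content with length) and to have shorter 3′ UTRs (correlation -0.68), and the class limits were set after the values were seen.

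**Figure D3:**
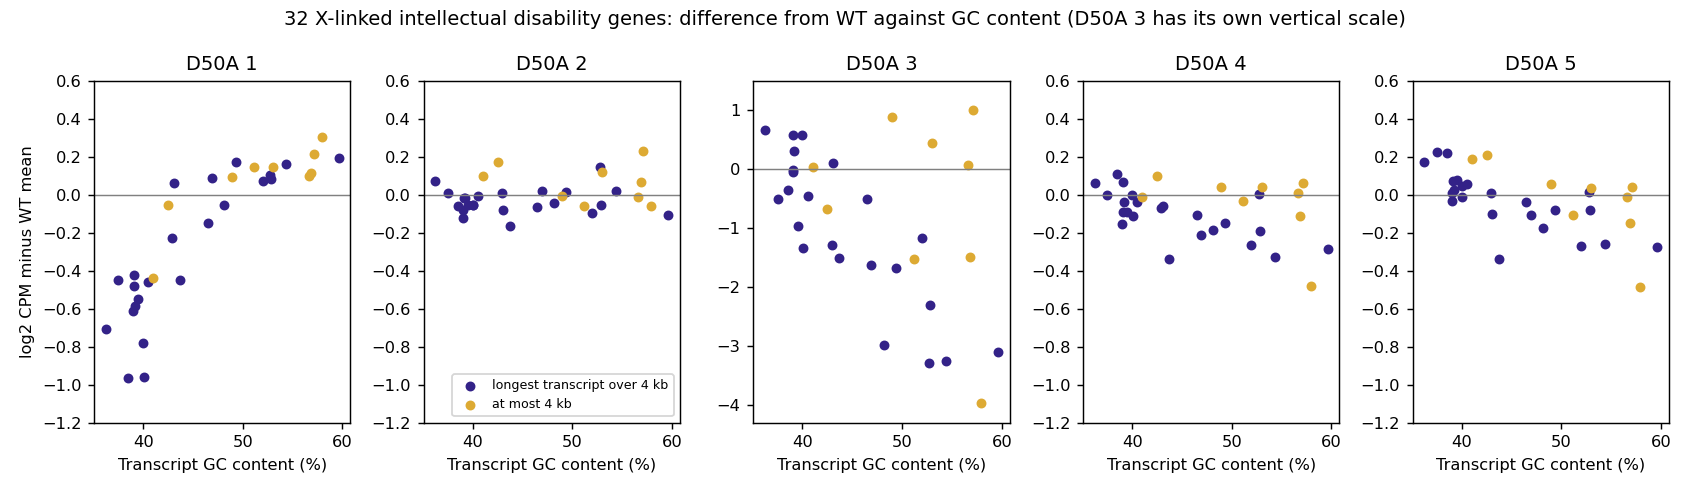
Deviation of the 32 genes from the WT mean (log2 CPM, vertical) against transcript GC content (percent, horizontal) in each D50A library, with transcripts over 4 kb in dark blue and shorter ones in yellow; D50A 3 has its own vertical scale. Points climb from left to right in D50A 1, lie close to 0 in D50A 2 and spread from 1.01 to -3.96 in D50A 3, where the GC-rich dark blue points are all below 0.

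With D50A 1 and D50A 3 left out, the members lay close to WT. Log2 fold changes then ran from -0.32 for Syn1 to 0.18 for Upf3b. SEs shrank as well, for example from 0.53 to 0.06 in Huwe1 and from 0.59 to 0.07 in Med12. Simulated counts for this contrast gave back 98% of genes changed 1.5-fold, against 0% for 5 D50A and 3 WT libraries, where 12% of 2-fold and 74% of 4-fold changes were recovered. Changes of 2-fold or less were thus mostly not recovered in the simulation with all 8 libraries. The libraries left out held most of the extreme values, so the rates of these contrasts are not a like-for-like comparison. Recovery for the members alone was not tested, and their SEs with all libraries ran from 0.13 for Syp to 0.68 for Syn1.

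**Figure D4:**
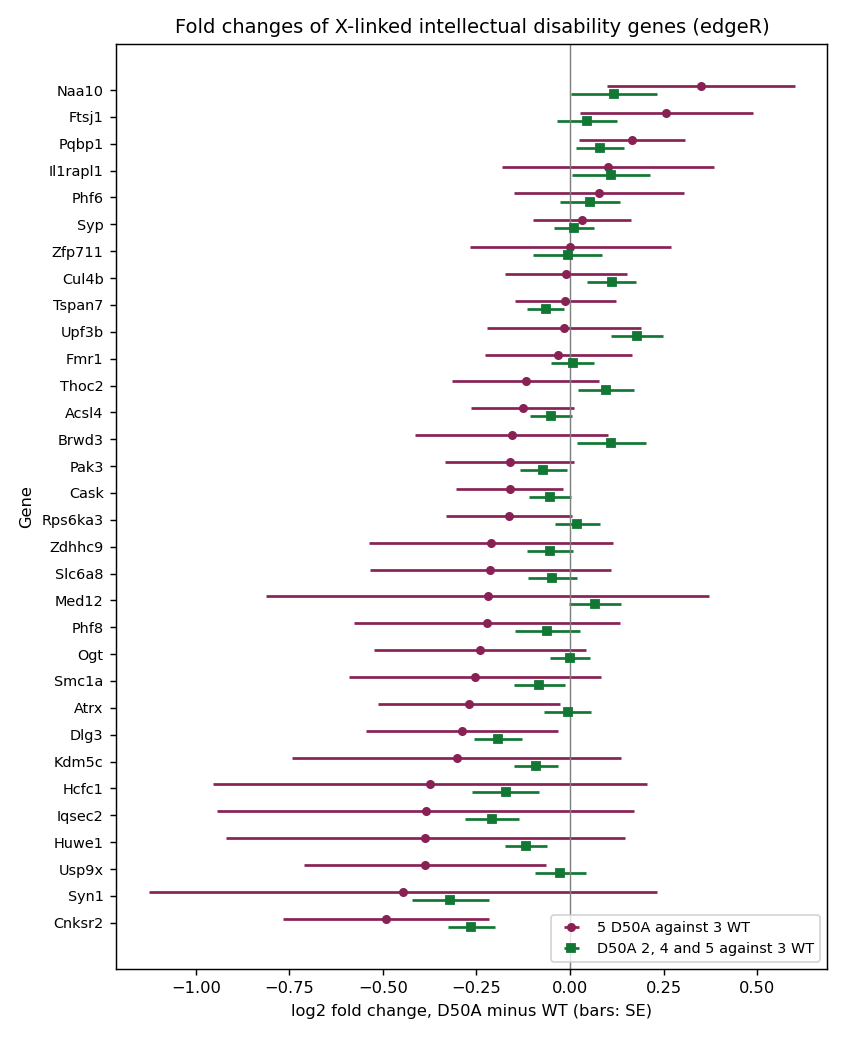
Log2 fold change of each gene (D50A minus WT, edgeR) with its SE, ordered by the value with all libraries; purple circles use 5 D50A and 3 WT libraries, green squares D50A 2, 4 and 5 and 3 WT libraries. The circles run from -0.49 to 0.35 with wide bars, and the squares lie between -0.32 and 0.18, with Cnksr2 the only gene that passed.

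Levels per length differed among members far more than between genotypes. In WT brain, Syp, Tspan7 and Syn1 had the highest CPM per kb of merged exons, at 130 ± 5.54, 125 ± 1.79 and 115 ± 15.3 (SD, n = 3), and these neighbours were within their spread of each other. Ogt followed at 60.3 ± 2.25, then Dlg3, Iqsec2 and Cnksr2 at 31.4 ± 1.7, 27.6 ± 2.72 and 27 ± 1.27 CPM per kb. At the low end were Il1rapl1 at 2.68 ± 0.513, Naa10 at 2.28 ± 0.284 and Brwd3 at 1.95 ± 0.19. Merged exons include rarely used ones, which lowers the value of Naa10, with 4132 merged bases for a longest coding transcript of 1031. In D50A the first 3 were Syp at 133 ± 4.76, Tspan7 at 124 ± 8.03 and Syn1 at 84.1 ± 49.4 CPM per kb (SD, n = 5).

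The members are spread along the X chromosome from Syp, which starts at 7638471, to Rps6ka3, which ends at 159368244 (mm10). Close neighbours did not always move alike: Naa10 (73916873 to 73921944, minus strand) was high in D50A 3 and Hcfc1 (73942792 to 73966357, minus strand) low, while Iqsec2 (152144268 to 152225236) and Kdm5c (152233020 to 152274535), both on the plus strand, were low. Acsl4 and Pak3 are the members nearest to Cstf2 (134059187 to 134086819, plus strand), with start sites 8.33 and 9.46 Mb away, and their log2 fold changes were -0.13 and -0.16. Cnksr2 lies at 157821436 to 158043294 on the minus strand, its start site 24.0 Mb from that of Cstf2. Cstf2 itself was at 105, 122, 65.8, 120 and 129 CPM in D50A and 135, 126 and 122 CPM in WT. Exons of 7 members overlap those of another annotated gene, most in Syp (16.8% of exon bases, opposite strand), Naa10 (11.6%, same strand as Arhgap4) and Med12 (9.72%). Whether counting used strand is unknown here, so values of members with an opposite-strand overlap, such as Syp, are uncertain to that extent. Overlaps on the same strand, as in Naa10 and Med12, leave values uncertain with or without the use of strand.

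Other disease genes and relatives were tested in the same fits, and edgeR called none of them with all 8 libraries. Of 46 other X-linked intellectual disability genes tested, 0 passed, the median log2 fold change was -0.07 and 27 were below 0, against 51.4% of all genes. Every D50A library lay below WT for 5 of them and above for 1, against 4.24% and 3.22% of all genes. Those with the smallest p included Pcdh19, a protocadherin (50.1 ± 5.03 CPM, n = 5, against 60 ± 0.882 CPM, n = 3, SD), Nexmif and Ids, with log2 fold changes of -0.26, -0.35 and -0.27 (edgeR adjusted p = 0.84 for each). Of 26 tested autosomal or Y-linked paralogs edgeR called 0 (median -0.1), and Rps6ka1, Dlg2, Syn2 and Synpr had the smallest p. limma-voom called 1 of the 26, Rps6ka1, higher (adjusted p = 0.00093), where it called 1.87% of all genes higher. Rps6ka1, an autosomal paralog of Rps6ka3, was at 15.4, 23.7, 14.6, 28.3 and 26 CPM in D50A 1 to 5 and 12.8, 13.2 and 11.5 CPM in WT. It was highest in D50A 2, 4 and 5 and rose there by 1.07 log2 units with an SE of 0.09 (edgeR adjusted p = 1.8e-06). Cerebellar markers were high in those libraries and also in D50A 3 (mean log2 CPM 5.41), where Rps6ka1 was at 14.6 CPM. The part of cerebellar content in the Rps6ka1 value was not tested. In that contrast 1 of the 26 paralogs was called higher and 2 lower, against 3.36% and 3.06% of all genes; the lower ones were Iqsec3 and Rps6ka2, with log2 fold changes of -0.27 and -0.25 (edgeR adjusted p = 0.031 and 0.042). Kdm5d, the Y-linked counterpart of Kdm5c, ranged from 25.9 to 46.4 CPM in D50A and from 40.6 to 45.1 CPM in WT. Of 19 autosomal protein partners of members 0 passed (median -0.07), with Upf2, Cdk8, Daxx and Golga7 having the smallest p. Upf2, the decay factor that UPF3B binds, ranged from 38 to 56.8 CPM in D50A and from 61.2 to 61.9 CPM in WT (log2 fold change -0.28, SE 0.16).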

How the data were processed

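Read counts per gene were deposited by the authors without normalization, for 5 D50A and 3 WT brain libraries in 1 table. The tools listed in the submitters' processing notes are STAR 2.5, HTSeq 0.6.1, CASAVA 1.8 and DESeq2 2, and the build is mm10. Their roles, the gene annotation and the use of strand are not stated there. Groups came from the genotype label; libraries are numbered in order of deposit and pair no animals, and p-values measure only the spread between these libraries.

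Counts were tested with edgeR 4.0.16 (R 4.3.3): filterByExpr, TMM scaling, quasi-likelihood F test, no covariate, Benjamini-Hochberg adjustment over 16810 genes, threshold 0.05. The SE is the log2 fold change over the square root of F. CPM uses TMM-scaled library sizes; log2 CPM adds a prior count of 2. Alternatives were DESeq2 1.42.0, limma-voom with sample quality weights (limma 3.58.1), robust fitting, other scalings and filters, removal of mitochondrially encoded and ribosomal protein genes, left-out libraries and a threshold of 0.1. The test was tried on simulated counts, in which 4 unchanged genes were called with 8 libraries and 20 with D50A 2, 4 and 5.

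Positions, lengths and GC content came from GENCODE M21 (mm10). Every member is named, and from each other list the 4 tested genes with the smallest unadjusted p, of which 1 is not reported here; further genes were named after their values were seen. The members and lists were chosen with earlier results of these data known, so no list was tested as a set. RefSeq promoters matched 26 members and are not printed, since no promoter measurement was made.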

Additional observations from a re-analysis of the deposited data

Results flagged for a closer look

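Within the 5 D50A libraries, 13 members had 1 library set apart from the other 4, judged by its gap to the next library as a share of the whole range (critical ratio 0.71). The library was D50A 3 in 12 of them. It was low for Cask (ratio 0.728), Kdm5c (0.786), Phf8 (0.722), Med12 (0.898), Smc1a (0.73), Ogt (0.745), Huwe1 (0.892), Zdhhc9 (0.768) and Slc6a8 (0.749). It was high for Pqbp1 (0.759), Ftsj1 (0.913) and Naa10 (0.854). For Acsl4 the library was D50A 1, at 71.2 CPM, with a ratio of 0.839. Chance flags about 1 in 20 such groups, and the genes share the same libraries, so these flags are not independent. In D50A 3, mitochondrially encoded genes also took 11.9% of reads.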

How the results depend on the processing

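edgeR called 0 of 16810 genes with 8 libraries and no member. DESeq2 called 37 genes, limma-voom 517 and the fit without D50A 1 and D50A 3 together 1065, of which 0, 1 and 1 were members (Cnksr2). Leaving out 1 library gave 0 to 26 genes, the 26 without D50A 1, and 0 members. Members whose groups did not overlap numbered 3, all below WT, against 4.24% of all genes below and 3.22% above. Without D50A 1 and D50A 3 they numbered 5, with 4 below and 1 above, against 12.3% and 13% of all genes. The count was 1 with upper-quartile scaling, and 1 (without D50A 3) to 6 (without WT 2) when 1 library was left out. Shares over all genes are not given for these last settings, so their counts cannot be read as an excess or a deficit. The class median stayed below 0 in every setting, from -0.23 (without D50A 5) to -0.02. With DESeq2 the sign turned for Tspan7 (0.0074), Upf3b (0.0024), Cul4b (0.0072). With limma-voom the sign turned for Syp (-0.0046), Med12 (0.040), Brwd3 (0.042), Zfp711 (-0.041), Thoc2 (0.050), Upf3b (0.15), Cul4b (0.068). With RLE scaling the sign turned for Tspan7 (0.019), Fmr1 (0.0018), Upf3b (0.0072), Cul4b (0.019). With upper-quartile scaling the sign turned for Tspan7 (0.034), Fmr1 (0.017), Upf3b (0.020), Cul4b (0.033). With no filter on low counts the sign turned for Zfp711 (-0.0057). Without D50A 1 and D50A 3 the sign turned for Rps6ka3 (0.020), Med12 (0.067), Brwd3 (0.11), Zfp711 (-0.0061), Fmr1 (0.0072), Thoc2 (0.097), Upf3b (0.18), Cul4b (0.11). Leaving out 1 library turned the sign in some fit for these members, with ranges Il1rapl1 -0.068 to 0.28, Tspan7 -0.033 to 0.0090, Phf6 -0.069 to 0.21, Phf8 -0.33 to 0.00072, Med12 -0.33 to 0.075, Brwd3 -0.27 to 0.012, Zfp711 -0.18 to 0.17, Fmr1 -0.12 to 0.10, Upf3b -0.079 to 0.12, Cul4b -0.064 to 0.10. The cause was not tested. No reversed value passed a test. Robust fitting, the stricter filter, removal of mitochondrial and ribosomal genes and a threshold of 0.1 changed no sign or call of a member. No paired analysis was possible because the labels give no replicate numbers that could pair animals. Naa10, with 137 to 280 reads per library, and Med12 in D50A 3, with 58, rest on few reads.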
